A study of Mus musculus with 24 samples.

Results

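The comparison set CD8+ T cells recovered from the small intestine against CD8+ T cells recovered from the liver, both taken 4 days after transplantation. Its members were the libraries titled as small intestine or liver of that day, 10 of the 24 one-colour microarrays of the series, 5 small intestine and 5 liver. They were compared as labelled and then with replicates 1 to 4 of each site, because the libraries labelled intestine 5 and liver 5 looked exchanged. The other 14 arrays, lung (n = 5), blood (n = 5) and the graft itself (n = 4), entered the fits to estimate the spread between replicates and counted in the filter on signal: a gene was tested when its probe was well above background on all or all but 1 array of any of the 5 groups. Both groups came from the same model. Female C57Bl/6 mice that carry membrane-bound ovalbumin under the CAG promoter (Act-mOVA), which is active in most cells, aged 8 to 16 weeks, received 11 Gy of total body irradiation in 2 split doses, allogeneic bone marrow and splenocytes from OT-I donors, and developed acute graft-versus-host disease. OT-I cells carry 1 transgenic T cell receptor that recognises an ovalbumin peptide. The grafted OT-I CD8+ cells were CD45.1 and every other graft and host cell was CD45.2, and the cells were collected with magnetic beads against CD45.1, so each library held whatever that selection retained. From each sample, 300 pg of total RNA went through 2 rounds of linear amplification. No label ties a sample to an animal of its own, so each p-value here measures the spread of these libraries, which may be technical in part. On the 10 arrays, 26.1% to 38.6% of gene probes were well above background, the first in intestine 4 and the second in the library labelled intestine 5.

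Donor T cells that enter the gut or the liver are the effector cells of acute graft-versus-host disease in those organs. T cells primed in gut lymphoid tissue acquire the integrin alpha4beta7 (Itga4 and Itgb7), which binds an adhesion molecule of gut venules, and the chemokine receptor Ccr9, whose ligand is made by the small intestinal epithelium. Recirculating T cells carry the sphingosine phosphate receptor S1pr1 to leave lymph nodes, under the transcription factor Klf2. The crypts of the small intestine also hold Paneth cells, which secrete alpha-defensins, so transcripts of Paneth cells are markers of small intestinal tissue. Its lamina propria holds plasma cells and macrophages. The liver has macrophages of its own, the Kupffer cells, so macrophage transcripts by themselves do not mark the small intestine against the liver.

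The libraries of replicate 5 stood apart from their labels. Levels are given as log2 signal minus the 75th percentile of the array's gene probes. The mean of 15 alpha-defensin genes was 5.14, 6.12, 2.25 and 6.76 in intestine libraries 1 to 4 and -2.36 in the library labelled intestine 5, against -1.66, -1.72, -1.45 and -1.80 in liver libraries 1 to 4 and 3.91 in the library labelled liver 5. The library labelled intestine 5 was thus below every other library of the comparison, and the one labelled liver 5 lay inside the range of intestine 1 to 4. Over 9443 genes, after each gene's mean over the 10 arrays was subtracted, the library labelled liver 5 correlated at 0.02 to 0.17 with intestine 1 to 4 and at -0.61 to -0.22 with liver 1 to 4. The library labelled intestine 5 correlated at -0.64 to -0.10 with intestine 1 to 4 and at 0.22 to 0.44 with liver 1 to 4. These correlations run across genes, which are not independent, and the 10 arrays share the subtracted mean. Of the hepatocyte genes, albumin (Alb) and transthyretin (Ttr) were not well above background on any of the 10 arrays. The apolipoprotein Apoa2, named after its values were seen, was well above background in 4 of liver 1 to 4 and 1 of intestine 1 to 4, and it was also so in the library labelled intestine 5 and not in the one labelled liver 5. Hp, by contrast, was so in 3 of liver 1 to 4, 1 of intestine 1 to 4 and neither library of replicate 5. Trf was so in both libraries of replicate 5. Of 22 hepatocyte genes with a probe, 6 were well above background in the library labelled intestine 5 and 2 in the one labelled liver 5. Those counts ran from 2 to 6 in liver 1 to 4 and from 2 to 4 in intestine 1 to 4, so they overlapped. The libraries keep their labels here, and where a result leaves them out it is conditional on that choice, which was made from the data.

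As labelled, no gene of 9446 tested separated small intestine from liver, and without replicate 5 of both sites 1820 did. The fit of all arrays as labelled called 0 genes at a Benjamini-Hochberg adjusted p under 0.05 in limma (0.0% of those tested), while 2160 genes had an unadjusted p under 0.05. With array weights, which let limma count deviating arrays less, 3231 genes were called as labelled (34.2%, with 7.3% higher and 26.9% lower). Without replicate 5 of both, limma called 1820 genes, 19.3% of those tested. Of these, 295 were higher in intestine (3.12% of those tested) and 1525 lower (16.1%). Each replicate number is also 1 hybridisation slide that holds both sites, and with slide as a fixed term over the day 4 arrays the count was 1804. A fit of the 8 intestine and liver arrays alone called 414 genes, and the same 8 arrays with the replicate number as a block called 176 (1.86%, with 0.265% higher and 1.6% lower). Array weights gave 3138 calls (33.2%, with 6.71% higher and 26.5% lower). Leaving out 1 more library moved the 1820 calls by over 1.5 times for 6 of the 8 libraries: 779 without intestine 2, 3584 without intestine 3, 800 without intestine 4, 986 without liver 2, 1151 without liver 3 and 1120 without liver 4. Of the 128 called genes named here, 64 remained called whichever of the 8 libraries was left out, 118 with slide as a fixed term and 37 with the replicate block.

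The direction of the calls depended on how arrays were scaled. The higher share of the called genes was 16.2% with the 75th percentile and 50.7% with the median of the probes detected on every array. The median difference of all tested genes, intestine minus liver, was -0.31 on the log2 scale with the first and 0.082 with the second. When each array was instead scaled to the mean of 5 T cell genes (Cd3d, Cd3e, Cd3g, Cd8a and Cd8b1), an alternative chosen after the data were seen, the median was 0.84, and 4047 genes were called (42.8%), 3906 of them higher (41.4%) and 141 lower (1.49%). With the libraries as labelled, the same scaling called 1 gene, Adgrg5, higher in intestine (0.0106%). Those 5 genes averaged 4.61, 3.81, 5.73 and 3.43 in intestine 1 to 4 and 5.51 in the library labelled intestine 5, against 5.40, 5.48, 5.67 and 5.63 in liver 1 to 4 and 5.40 in the library labelled liver 5. Intestine 1, 2 and 4 were below all liver libraries, and intestine 3 was above them. In RNA of whole samples, fewer T cells and less RNA per T cell cannot be told apart. In 6 scalings that do not use T cell genes, 166 genes were called higher and 599 lower every time, and 140 of the lower ones were also called lower relative to the T cell genes. Below, a call is that of the 75th percentile without replicate 5 of both unless another is named, and "relative to T cell genes" names the T cell scaling. It subtracts 1 number per array, so it moved the difference of every gene with a value on all arrays by the same amount. List medians moved with it, and their distance from the median of all tested genes was fixed in advance.

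**Figure D1:**
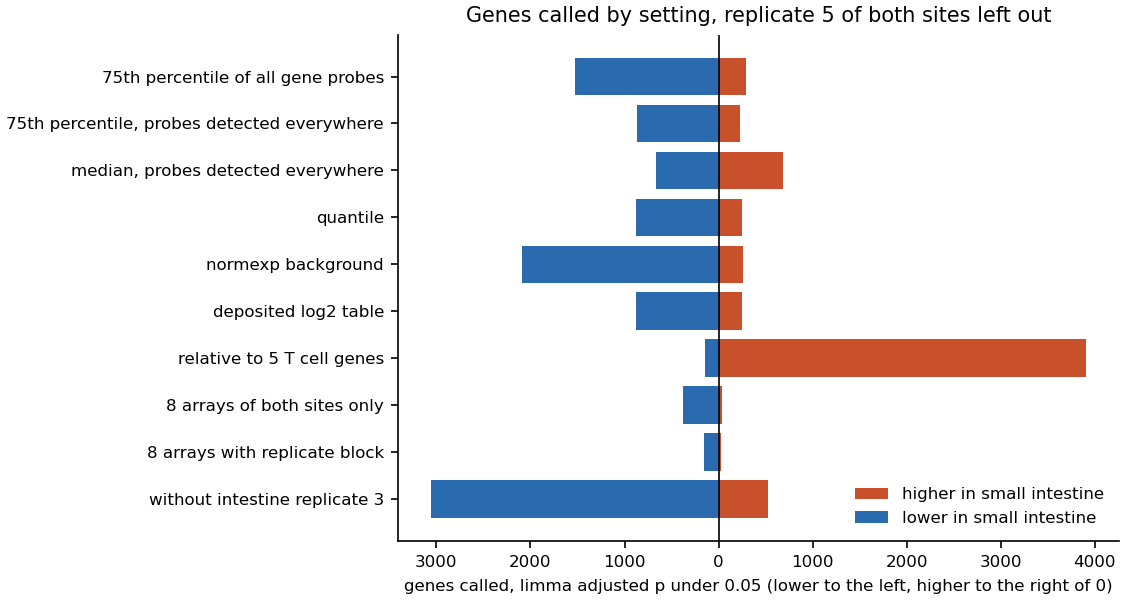
Genes called between small intestine and liver without replicate 5 of both, by setting; the horizontal axis is the number of genes with a limma adjusted p under 0.05, lower in intestine to the left of 0 and higher to the right. The calls run to the left in most settings (1525 lower and 295 higher with the 75th percentile) and to the right relative to 5 T cell genes (3906 higher and 141 lower).

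Alpha-defensins, the antimicrobial peptides of Paneth cells, were higher in intestine than in liver. Of 15 alpha-defensin genes tested, 14 were called higher, but 12 of the 15 passed the filter on signal through intestine alone and so had to differ, and their count is a description. Of the 3 that passed it through liver as well, Defa23 and Defa31, the second named after its values were seen, were called and Defa10 was not. All 15 were well above background on each of intestine 1 to 4, and 10 were so on none of liver 1 to 4. Some of these transcripts are close copies of each other, and the probe sequences are shown because they decide how far the members can be told apart. Of the 105 pairs of probes, 6 shared a run of 20 bases or more, and the median of the longest shared run was 6 bases. Below are the probes, 60 bases each, of 4 of them, among them close and distant pairs, each with at least 1 reading frame free of stop codons, with capitals marking the longest run shared with the Defa3 probe (for Defa3 itself, with the Defa24 probe).
Defa3: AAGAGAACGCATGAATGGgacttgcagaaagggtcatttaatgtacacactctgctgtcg
Defa24: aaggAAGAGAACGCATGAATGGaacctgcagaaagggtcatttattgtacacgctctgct
Defa27: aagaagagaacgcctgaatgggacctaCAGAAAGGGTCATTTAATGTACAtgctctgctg
Defa32: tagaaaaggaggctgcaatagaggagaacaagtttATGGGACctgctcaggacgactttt
The array annotation (mm9) places them on the plus strand, Defa3 at chr8:22427899-22427958, Defa27 at chr8:22456000-22456059 and Defa32 at chr8:22640300-22640359, and gives no position for Defa24. Defa3 and Defa24 shared a run of 18 bases and Defa3 and Defa27 one of 23, while Defa3 and Defa32 shared no run longer than 7. A transcript of one gene may therefore give signal on the probe of another where the run is long, and the 15 genes are not 15 independent measurements.

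Defa3 stood at 6.30, 7.22, 3.12 and 7.55 in intestine 1 to 4 and -1.84 in the library labelled intestine 5, against -0.86, -1.39, -0.91 and -1.53 in liver 1 to 4 and 4.76 in the library labelled liver 5. Intestine 1 to 4 and liver 1 to 4 did not overlap, intestine 3 was the lowest of the first, and the libraries of replicate 5 fell in each other's range or beyond it. Its log2 difference was positive on 4 of 4 slides and was 7.22 ± 0.62 (SE, n = 4 each, limma adjusted p = 1.39e-07), measured against 4 liver libraries of which 1 was well above background. Defa23 differed by 7.42 (adjusted p = 3.67e-08) and Defa27 by 5.32 (adjusted p = 2.53e-05). Defa3, Defa24, Defa27, Defa28, Defa29 and Defa42 are among the 12 that passed the filter through intestine alone and so had to differ. Their differences, bounds and p-values are therefore a description. Defa24, Defa28, Defa29 and Defa42 were not well above background on any of liver 1 to 4, so they have bounds, at least 89.1-fold, 131-fold, 78-fold and 104-fold higher. Here and below, such a bound sets the mean of the brighter site against, per array of the dimmer site, the higher of the lowest signal well above background and the probe's own signal. That mean includes any library of the brighter site that was not well above background, and the bound then rests in part on background signal. A gene well above background on only some libraries of its dimmer site keeps its measured difference, which then rests in part on background signal. This holds with 1 library of 4 for Defa3, Lyz1, Krt18, Cd74, H2-Ab1, H2-DMb1, H2-Eb1, Cd63, Ccr9 and Chac1 in liver, and for Ccr10, Cdkn2c, Irf4, Klf3, Klra16, Srpk2, Nr3c1 and Terf2 in intestine. Lyz1, the Paneth cell lysozyme, differed by 6.37 (adjusted p = 0.00551), and Itln1, an intelectin named after its values were seen, was at least 6.02-fold higher (adjusted p = 0.00214). Of the 10 genes of the Paneth cell list with a probe, 5 were tested, 2 of them through intestine alone of the 5 groups. All 5 were called higher (100%, against 3.12% of all tested genes), 4 of them with the replicate block too.

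Epithelial transcripts ran the same way. Of 7 tested genes of the intestinal epithelial list, 5 were called higher (71.4%, against 3.12% of all tested genes) and none lower, with a median of 3.82. Of the 7, 1 gene, Reg3g, passed the filter through intestine alone and so had to differ. Lgals4, a galectin of the epithelium, stood at 2.35, 5.61, 0.56 and 6.54 in intestine 1 to 4 and -1.22 in the library labelled intestine 5, against -0.57, -1.61, -1.03 and -0.64 in liver 1 to 4 and 2.92 in the library labelled liver 5. Intestine 2 and 4 were the highest, and intestine 3 came closest to the liver libraries. Its log2 difference was 4.72 ± 0.83 (SE, adjusted p = 0.00118). Reg3g, an antibacterial lectin, was at least 13.9-fold higher (adjusted p = 6.45e-05), since no liver library of 1 to 4 was well above background. The keratin Krt18 differed by 3.82 (adjusted p = 0.00189). The other 2 called members, named after their values were seen, were the keratin Krt19, at least 12.8-fold higher (adjusted p = 0.00857), and the intestinal transcription factor Cdx2 at 1.70. Gjb2, the gap junction protein connexin 26, was at least 4.14-fold higher in intestine (adjusted p = 7.71e-08), with 1.50, 1.07, 1.47 and 0.36 in intestine 1 to 4 against -3.04, -2.90, -2.70 and -3.19 in liver 1 to 4. Unlike Lgals4, Gjb2 was close in intestine 3 and intestine 1. Tagln, a smooth muscle protein, was the 1 called gene of 3 tested in the fibroblast and smooth muscle list and differed by 2.18 (adjusted p = 0.0336); that call was lost without any 1 of 5 of the 8 libraries.

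Transcripts of antibody-secreting cells were higher in intestine. Jchain, which joins the chains of IgA and IgM, stood at 5.72, 5.37, 4.52 and 2.48 in intestine 1 to 4 and -3.73 in the library labelled intestine 5, against -2.89, -2.75, -2.49 and -3.01 in liver 1 to 4 and 4.33 in the library labelled liver 5. All 4 intestine libraries were clear of the liver libraries of 1 to 4, and Jchain was at least 44.4-fold higher (adjusted p = 3.67e-08). Of 9 tested genes of the plasma cell list, 5 were called higher (55.6%, against 3.12% of all tested genes) and 1 lower, with a median of 1.14. The syndecan Sdc1, also made by epithelium, differed by 1.88 (adjusted p = 0.000271) and the survival receptor Tnfrsf17 was at least 1.87-fold higher (adjusted p = 0.00223). Of 2 secretory pathway genes named after their values were seen, Derl3 differed by 1.14 and Mzb1 was at least 1.38-fold higher (adjusted p = 0.0059). Tnfrsf17 and Mzb1 were each well above background in 2 of intestine 1 to 4. The lower member was Irf4, a transcription factor that activated T cells also express, described with the T cell genes below. A pair of immunoglobulin entries passed as well, Igh-VJ558 at 5.30 (adjusted p = 9.24e-06) and Iglv1 at 5.54 (adjusted p = 0.000461), but the variable gene segments are a family of near-identical copies, and the other probes of Igh-VJ558 gave differences from 0.31 to 5.67. Of 11 B cell genes, 8 were tested through the graft, lung or blood arrays, since neither intestine nor liver passed the filter. Of the 11, 3 were called higher (27.3%, against 3.12% of all tested genes). They were the receptor chain Cd79a at least 3.04-fold higher (adjusted p = 0.00103), the complement receptor Cr2 at least 1.54-fold higher (adjusted p = 0.033) and Ly86 at least 2.5-fold higher (adjusted p = 0.0367). Well above background in intestine 1 to 4 were 3 libraries for Cd79a, 2 for Ly86 and 1 for Cr2. The B cell gene Ms4a1 was not well above background on any of the 10 arrays.

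Genes of antigen-presenting cells were higher in part of the intestine libraries. Of 10 tested genes of the dendritic cell and MHC class II list, 6 were called higher and none lower (median 1.92), and of 9 tested Kupffer cell and macrophage genes 2 were called higher (median 0.75). These were 60% and 22.2% of the tested members, against 3.12% of all tested genes. H2-Ab1, an MHC class II chain, stood at 6.27, 6.62, -2.57 and 4.47 in intestine 1 to 4 and -0.13 in the library labelled intestine 5, against -2.50, 0.46, -2.68 and -3.15 in liver 1 to 4 and 4.14 in the library labelled liver 5. Intestine 3 lay among the liver libraries, so the sites overlapped. The difference was 5.67 ± 1.66 (SE, adjusted p = 0.0238). H2-Eb1 differed by 5.87 (adjusted p = 0.0195), the peptide loader H2-DMb1 by 5.34 (adjusted p = 0.0165), the invariant chain Cd74 by 4.94 (adjusted p = 0.00574) and Itgax, an integrin of dendritic cells and of some gut T cells, by 1.59 (adjusted p = 0.0152). H2-Aa, named after its values were seen, was well above background in 2 of intestine 1 to 4 and at least 1.22-fold higher (adjusted p = 0.0204). Cd74 was the 1 member of the list that held with the replicate block. Without intestine 1, 2 or 4, the list had 3, 1 or 3 called members.

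The 2 called macrophage genes were high in intestine 1 and 2 alone. C1qc, a complement component of macrophages, stood at 5.32, 5.55, -2.71 and -0.85 in intestine 1 to 4 and -3.97 in the library labelled intestine 5, against -3.07, -0.80, -2.76 and -3.29 in liver 1 to 4 and -2.94 in the library labelled liver 5. Csf1r, the receptor of the macrophage growth factor, stood at 5.39, 5.85, -2.79 and -2.50 against -3.20, -2.20, -2.83 and -3.36 in the same libraries 1 to 4. In both genes intestine 3 and 4 overlapped the liver libraries, and they were well above background in 2 intestine libraries and no liver library of 1 to 4. C1qc was at least 6.76-fold higher (adjusted p = 0.025) and Csf1r at least 5.42-fold higher (adjusted p = 0.0399); neither held with the replicate block or without intestine 1 or intestine 2. The cytokine gene Il1b was at least 8.21-fold higher (adjusted p = 0.0122), the decoy receptor Il1r2 at least 3.66-fold higher (adjusted p = 0.0133) and the chemokine Cxcl2 at least 1.78-fold higher (adjusted p = 0.0242). Il1b and Il1r2 were likewise highest in intestine 1 and 2. The endotoxin receptor Cd14 differed by 2.60 (adjusted p = 0.0377) and the tetraspanin Cd63 by 5.22 (adjusted p = 0.0234), the second against liver libraries 1 to 4 of which 1 was well above background. In the other direction, Camp and S100a8, of the neutrophil and monocyte list, were lower in intestine. Of 15 tested genes of that list, these 2 were called lower and 2, Il1b and Cd14, higher, with a median of -0.02. That was 13.3% in each direction, against 16.1% of all tested genes called lower and 3.12% called higher. Camp stood at -2.85, -2.69, -2.77 and -2.44 in intestine 1 to 4, against 1.07, 1.43, -2.85 and 4.57 in liver 1 to 4. Neither Camp nor S100a8 was well above background on any of intestine 1 to 4, and both were in 3 of the 4 liver libraries, all but liver 3. Camp was at least 3.02-fold lower (adjusted p = 0.0206) and S100a8 at least 1.9-fold lower (adjusted p = 0.0418), but neither was called without liver 2 or without liver 4.

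Liver parenchyma left little signal. Of 22 hepatocyte genes with a probe, 13 were not well above background on any of the 10 arrays, and 5 were tested. Ass1, an enzyme of the urea cycle that other cells also express, was the 1 called and was lower in intestine at -0.88 (adjusted p = 0.0317), but relative to T cell genes it was 0.27 (adjusted p = 0.622). The summed hepatocyte level ran from 3.33 to 5.38 in intestine 1 to 4, against 3.46 to 4.72 in liver 1 to 4, so the sites overlapped. For the Paneth cell list of 10 genes with a probe, the summed level ran from 5.88 to 9.95 in intestine 1 to 4, against 1.63 to 1.80 in liver 1 to 4. For the 18 Kupffer cell and macrophage genes it ran from 4.63 to 8.31 in intestine, against 5.25 to 5.83 in liver. The part of these other cells in the T cell results below was not tested. Intestine 3, which had the lowest defensin, Lgals4 and H2-Ab1 levels of intestine 1 to 4, also had the highest mean of the 5 T cell genes.

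**Figure D2:**
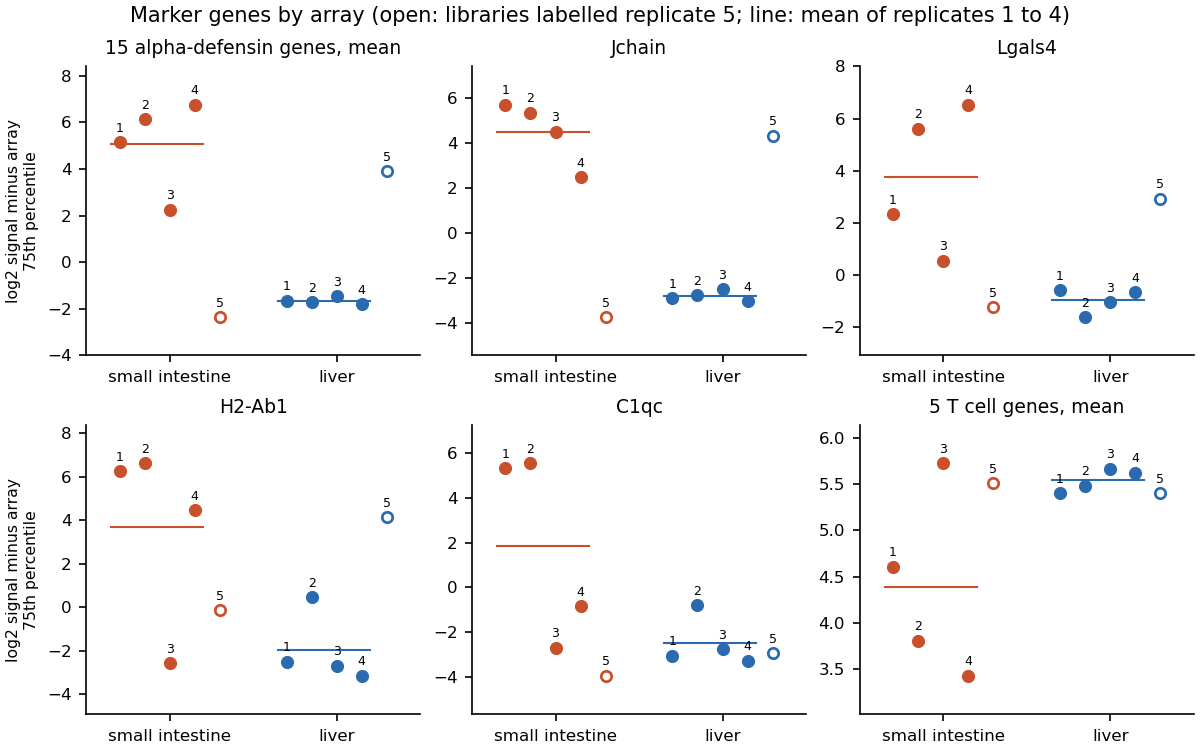
Marker genes in each library; the vertical axis is log2 signal minus the array's 75th percentile, numbers are the labelled replicates, open circles are the libraries labelled replicate 5 and lines the means of replicates 1 to 4. The defensin mean runs from 2.25 to 6.76 in intestine 1 to 4 and is below -1.4 in liver 1 to 4, and in that panel the open circles sit at the other site's level or beyond it. The T cell mean of intestine 3 (5.73) lies just above the liver libraries.

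Of 15 T cell identity genes tested, 3 were called lower in intestine (20%, against 16.1% of all tested genes) and none higher, and all 15 differences were below 0. With the replicate block none of the 15 was called. The list median was -0.87, and relative to T cell genes, which include 5 of the list, it was 0.28, against 0.84 for all tested genes. Without intestine 3 the number called lower was 11, and without intestine 2 or intestine 4 it was 1. Cd8a, the alpha chain of CD8, stood at 3.85, 2.92, 4.96 and 2.15 in intestine 1 to 4 and 5.23 in the library labelled intestine 5, against 4.68, 4.71, 4.67 and 4.37 in liver 1 to 4 and 4.96 in the library labelled liver 5. Intestine 1, 2 and 4 lay below the liver libraries and intestine 3 above them, and the difference of -1.14 ± 0.44 (SE) did not pass the test (adjusted p = 0.0692). Cd8b1, the beta chain, stood at 3.10, 1.83, 4.20 and 0.84 in intestine 1 to 4 and 3.98 in the library labelled intestine 5, against 4.52, 4.77, 4.86 and 4.50 in liver 1 to 4 and 3.17 in the library labelled liver 5. Here all 4 intestine libraries lay below all 4 liver libraries, with a difference of -2.17 ± 0.53 (SE, adjusted p = 0.0104). Although Cd8b1 is part of the T cell scaling, it remained lower under it, at -1.02 (adjusted p = 0.0215). Cd3g, a chain of the T cell receptor complex, differed by -1.13 (adjusted p = 0.0223) and the receptor inhibitor Cd5 by -1.21 (adjusted p = 0.0194), while Cd3e differed by -0.76 (adjusted p = 0.0852) and Ptprc, the CD45 gene, by -0.71 (adjusted p = 0.256), neither passing the test. Relative to T cell genes, Cd3g was 0.02 (adjusted p = 0.945) and Cd3e 0.40 (adjusted p = 0.136). Cd4, of the other T cell lineage, differed by 0.41 (adjusted p = 0.17) on the probe used and stood between -0.74 and 0.56 in all 10 libraries, while its other probe averaged 0.547 in intestine 1 to 4 and -2.30 in liver 1 to 4.

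Among gut homing genes, Ccr9 was the 1 gene called higher in intestine. It stood at 1.87, 0.40, 2.37 and -0.11 in intestine 1 to 4 and 0.13 in the library labelled intestine 5, against -1.19, -3.11, -0.12 and -1.13 in liver 1 to 4 and 1.43 in the library labelled liver 5. Intestine 1 and 3 were clear of the liver libraries and intestine 4 was level with liver 3. The difference was 2.52 ± 0.87 (SE, adjusted p = 0.0457), it was positive on 4 of 4 slides, and relative to T cell genes it was 3.67 (adjusted p = 0.00684). It was called in 3 of the 6 scalings without T cell genes, with differences from 1.38 to 2.91. It was well above background in all 4 intestine libraries and 1 of the 4 liver libraries, and it was no longer called when any 1 of 7 of the 8 libraries, all but liver 3, was left out. On slide 5 the difference as labelled was -1.30.

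The integrin chains ran the other way or did not pass. Itga4 stood at 3.81, 2.92, 4.42 and 1.99 in intestine 1 to 4 and 5.08 in the library labelled intestine 5, against 5.21, 5.17, 4.98 and 4.84 in liver 1 to 4 and 4.41 in the library labelled liver 5. All 4 intestine libraries of 1 to 4 were below all 4 liver libraries of 1 to 4, at -1.77 ± 0.36 (SE, adjusted p = 0.00354); relative to T cell genes the difference was -0.62 (adjusted p = 0.062) and did not pass. Itgb7 stood at 6.64, 5.95, 7.67 and 5.94 in intestine 1 to 4, against 6.79, 6.75, 7.32 and 7.47 in liver 1 to 4, and the difference of -0.53 (adjusted p = 0.182) did not pass; relative to T cell genes it was 0.62 (adjusted p = 0.0724). Itgb1, the beta1 partner of Itga4, differed by -2.32 (adjusted p = 0.00294). Itgae, which pairs with Itgb7 on cells in the epithelium, was not well above background in any of the 10 libraries. Cxcr6, a chemokine receptor of tissue T cells, stood at 3.80, 1.69, 6.24 and 3.50 in intestine 1 to 4, against 4.72, 2.23, 5.91 and 6.07 in liver 1 to 4, overlapped between the sites and was not called (adjusted p = 0.344); relative to T cell genes it was 0.23 (adjusted p = 0.791). Ccr10, a receptor for chemokines of skin and mucosa, was well above background in 1 of intestine 1 to 4 and in all 4 liver libraries, was lower at -3.52 (adjusted p = 0.000865) and remained so relative to T cell genes, at -2.36 (adjusted p = 0.019). Cxcr3, the receptor for interferon-induced chemokines, named after its values were seen, differed by -2.12 (adjusted p = 0.016). Of the 16 tested members of the list, 1 was called higher (6.25%, against 3.12% of all tested genes) and 4 lower (25%, against 16.1%), with a median of -0.72. Relative to T cell genes 4 were called higher and 1 lower, with a median of 0.43. Under that scaling 41.4% of all tested genes were called higher, and the median of all tested genes was 0.84.

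**Figure D3:**
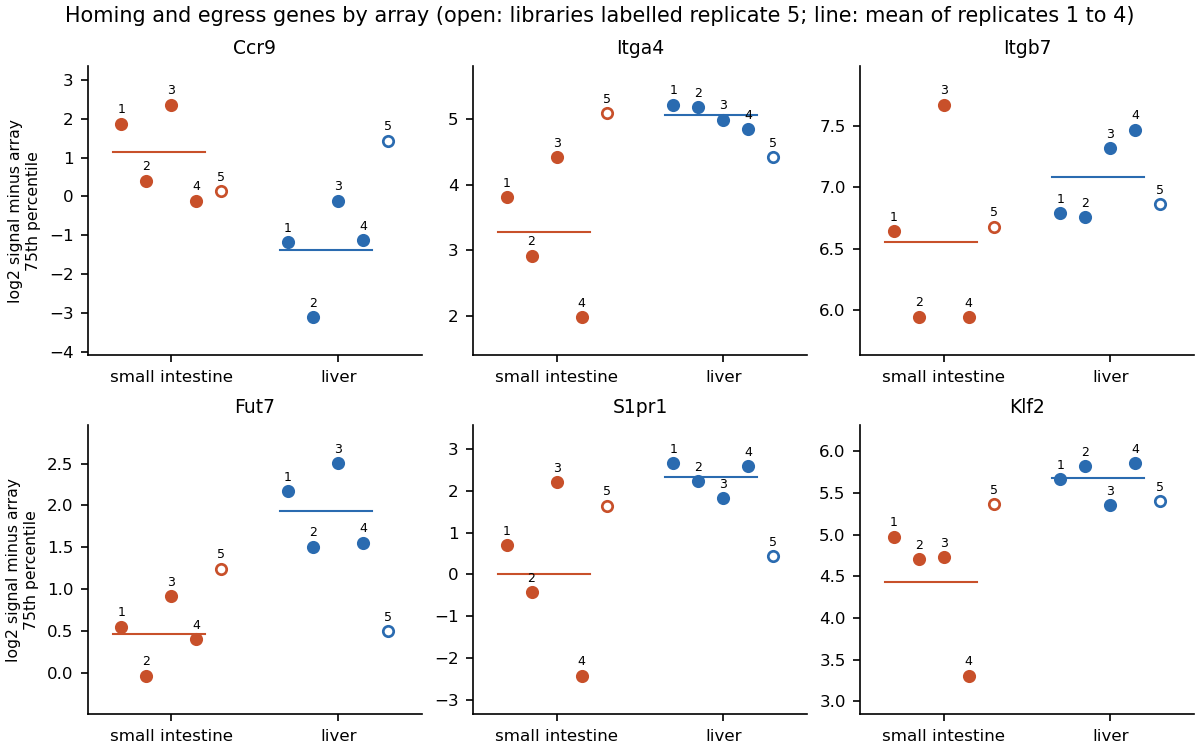
Homing and egress genes in each library; the vertical axis is log2 signal minus the array's 75th percentile, open circles are the libraries labelled replicate 5 and lines the means of replicates 1 to 4. Ccr9 is higher in intestine 1 to 4, and Fut7 lies between -0.03 and 0.92 in intestine 1 to 4 and at 1.51 or above in liver 1 to 4. The open circles of Fut7 lie toward the other site, while both open circles of Ccr9 lie inside the range of intestine 1 to 4.

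Of 13 tested genes of lymph node entry and tissue egress, 5 were called lower in intestine (38.5%, against 16.1% of all tested genes) and none higher. The list median was -0.66. Relative to T cell genes it was 0.50, by the shift that all genes share there, and the median of all tested genes was 0.84. In the other 5 scalings 1 to 5 were called lower and none higher. The count was 2 without intestine 2, 1 without intestine 4, 2 without liver 1, 2 without liver 2, 3 without liver 3 and 3 without liver 4. Fut7, a fucosyltransferase, stood at 0.55, -0.03, 0.92 and 0.40 in intestine 1 to 4 and 1.24 in the library labelled intestine 5, against 2.17, 1.51, 2.50 and 1.56 in liver 1 to 4 and 0.50 in the library labelled liver 5. The sites did not overlap over replicates 1 to 4, as for 1042 of the 1525 genes called lower. Fut7 was lower on 4 of 4 slides, S1pr1 on 3 and Klf2 on 4. The difference of Fut7 was -1.48 ± 0.30 (SE, adjusted p = 0.00343) and, relative to T cell genes, -0.32 (adjusted p = 0.57). S1pr1 stood at 0.69, -0.43, 2.21 and -2.43 in intestine 1 to 4, against 2.66, 2.23, 1.82 and 2.59 in liver 1 to 4. Intestine 3 lay inside the liver range, 2 of the 4 intestine libraries were well above background, and the difference was -2.32 (adjusted p = 0.0288). Klf2 stood at 4.97, 4.70, 4.73 and 3.30 in intestine 1 to 4, against 5.67, 5.82, 5.35 and 5.86 in liver 1 to 4, with no overlap and a difference of -1.25 (adjusted p = 0.0419). The call of S1pr1 was lost without any 1 of 5 of the 8 libraries and that of Klf2 without any 1 of 6, while Fut7 remained called whichever was left out. Relative to T cell genes, S1pr1 was -1.16 (adjusted p = 0.0599) and Klf2 -0.09 (adjusted p = 0.869), so neither passed there. Itgal, the alpha chain of the integrin LFA-1, differed by -1.20 (adjusted p = 0.0152). Its beta chain Itgb2, named after its values were seen, differed by -1.15 and by 0.01 (adjusted p = 0.989) relative to T cell genes. Fut7 was the 1 of the 5 that held with the replicate block, and without intestine 4 it was the 1 called.

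Most effector genes did not pass the test. Gzma, granzyme A, stood at 6.88, 6.19, 7.39 and 6.20 in intestine 1 to 4 and 6.37 in the library labelled intestine 5, against 6.89, 6.05, 6.99 and 7.47 in liver 1 to 4 and 6.37 in the library labelled liver 5. Its difference of -0.18 ± 0.38 (SE) was smaller than its error. Relative to T cell genes it was 0.97 (adjusted p = 0.0297) and was called higher, as were 41.4% of all tested genes. Gzmb stood at 5.16, 3.78, 6.20 and 3.38 in intestine 1 to 4, against 6.06, 4.81, 6.30 and 5.54 in liver 1 to 4, and Ifng at 4.97, 4.47, 5.78 and 2.54 against 4.27, 4.49, 4.38 and 4.61. Neither passed the test, with adjusted p = 0.268 for Gzmb and adjusted p = 0.997 for Ifng, and in both the 4 intestine libraries spread wider than the liver libraries, intestine 3 highest and intestine 4 lowest. Prf1, the pore-forming perforin, was not well above background on any of intestine 1 to 4 and in 3 of the 4 liver libraries it was (adjusted p = 0.0625), and Tnf differed by 0.67 (adjusted p = 0.17); neither was called. Of 16 tested cytotoxic genes, 3 were called lower: Unc13d, which releases cytotoxic granules, at -3.22 (adjusted p = 0.0158); the granzyme B inhibitor Serpinb9 at -2.52 (adjusted p = 0.0463); and Cst7, a cathepsin inhibitor, at -1.24 (adjusted p = 0.0194). The 3 were 18.8% of the tested list, against 16.1% of all tested genes. All 3 calls were lost without intestine 2 and without intestine 4. Unc13d stood at 1.38, -2.40, 2.29 and -2.18 in intestine 1 to 4, against 2.39, 2.85, 3.09 and 3.62 in liver 1 to 4, low in intestine 2 and 4 and near the liver level in intestine 3. Of 8 tested cytokine genes none was called, and the list medians were -0.70 for cytotoxic molecules and 0.24 for cytokines. Relative to T cell genes they were 0.46 and 1.39, against 0.84 for all tested genes.

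Inhibitory receptors, transcription factors and cytokine receptors were called lower in intestine about as often as all tested genes (16.1%), at 20%, 20.8% and 16.7% of their tested members. Tox, a transcription factor of chronically stimulated T cells, stood at 2.19, 1.65, 3.29 and 1.30 in intestine 1 to 4 and 4.62 in the library labelled intestine 5, against 3.87, 4.13, 3.69 and 4.16 in liver 1 to 4 and 4.50 in the library labelled liver 5. The sites did not overlap over replicates 1 to 4, and the difference was -1.85 (adjusted p = 0.00572). The inhibitory receptors Lag3 and Btla differed by -1.56 (adjusted p = 0.0259) and -2.62 (adjusted p = 0.018), and 3 of the 15 tested genes of that list, Tox among them, were called lower and none higher. Relative to T cell genes, Tox was -0.70 (adjusted p = 0.047), Btla -1.46 (adjusted p = 0.0384) and Lag3 -0.41 (adjusted p = 0.332). Irf4, induced with the strength of T cell receptor signals, stood at 0.03, -1.34, -0.63 and -1.64 in intestine 1 to 4, against 1.92, 2.41, 2.70 and 1.29 in liver 1 to 4. It was well above background in 1 of intestine 1 to 4 and in all 4 liver libraries. It differed by -2.97 (adjusted p = 0.0026), and Zbtb32, a repressor in activated lymphocytes, by -2.28 (adjusted p = 0.000865); relative to T cell genes they were -1.82 (adjusted p = 0.0255) and -1.13 (adjusted p = 0.0494). With Klf2, Klf3 at -1.31 (adjusted p = 0.0215) and Bcl11b, named after its values were seen, at -0.84, 5 of 24 tested transcription factors were called lower and none higher. Il18r1, a chain of the interleukin-18 receptor, stood at 0.84, -0.48, 1.44 and -1.38 in intestine 1 to 4, against 3.63, 3.60, 3.34 and 2.79 in liver 1 to 4, without overlap. It was well above background in 2 of intestine 1 to 4, differed by -3.23 (adjusted p = 0.000605) and, relative to T cell genes, by -2.08 (adjusted p = 0.00982). The shared cytokine receptor chain Il2rg differed by -2.49 (adjusted p = 0.021) and Il27ra by -0.81 (adjusted p = 0.0113), which was 0.34 (adjusted p = 0.435) relative to T cell genes. Of 18 tested interleukin receptors, these 3 were called lower and Il1r2 higher. Klra1, Klra7 and Klra16, Ly49 receptors of natural killer cells and some T cells, were lower, Klra1 at -2.20, Klra16 at -3.74 and Klra7 at least 1.79-fold lower (adjusted p = 0.0164). They belong to a family of close copies, and the other probes of Klra1 gave differences of 1.72 and 0.62, opposite to the probe used. Klra7 passed the filter on signal through liver alone, so it had to differ and its bound and call are a description. Among 51 named genes with another probe, 25 had one of the opposite sign, and Klra1 was the 1 whose opposite probe had means above 0 in both sites.

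Of 34 cell cycle genes tested, 24 were called lower in intestine (70.6%, against 16.1% of all tested genes) and none higher. The median was -1.36 against -0.31 for all tested genes. Relative to T cell genes none was called lower and 3 higher, where 1.49% of all tested genes were called lower and 41.4% higher. The median there was -0.21 against 0.84. In the other 5 scalings 15 to 27 were called lower and none higher, and with the replicate block 5 were. Without intestine 4 the number called lower was 15. Kif20a, a mitotic kinesin, stood at 1.25, 1.45, 1.09 and 1.93 in intestine 1 to 4 and 2.31 in the library labelled intestine 5, against 3.52, 3.29, 2.56 and 3.17 in liver 1 to 4 and 1.73 in the library labelled liver 5. The sites did not overlap over replicates 1 to 4, and intestine 3 was the lowest library, at 1.09. Its difference was -1.70 ± 0.33 (SE, adjusted p = 0.00226). The mitotic kinase Aurka differed by -1.52 (adjusted p = 0.00269) and the polymerase subunit Pold1 by -1.34 (adjusted p = 0.0022). Cdca2 and Kif23, both active in late mitosis, were not well above background on any of intestine 1 to 4 and were at least 4.42-fold and 2.71-fold lower, with adjusted p = 9.63e-06 and adjusted p = 5.58e-05. The cyclin-dependent kinase inhibitor Cdkn2c, well above background in 1 of intestine 1 to 4, differed by -3.58 (adjusted p = 0.000272). Cdca2, Kif23 and Cdkn2c are not among the 34 genes, and relative to T cell genes they were still called lower, with Cdkn2c at -2.42 (adjusted p = 0.0215), while Kif20a was -0.55 (adjusted p = 0.424) and Aurka -0.36 (adjusted p = 0.565).

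**Figure D4:**
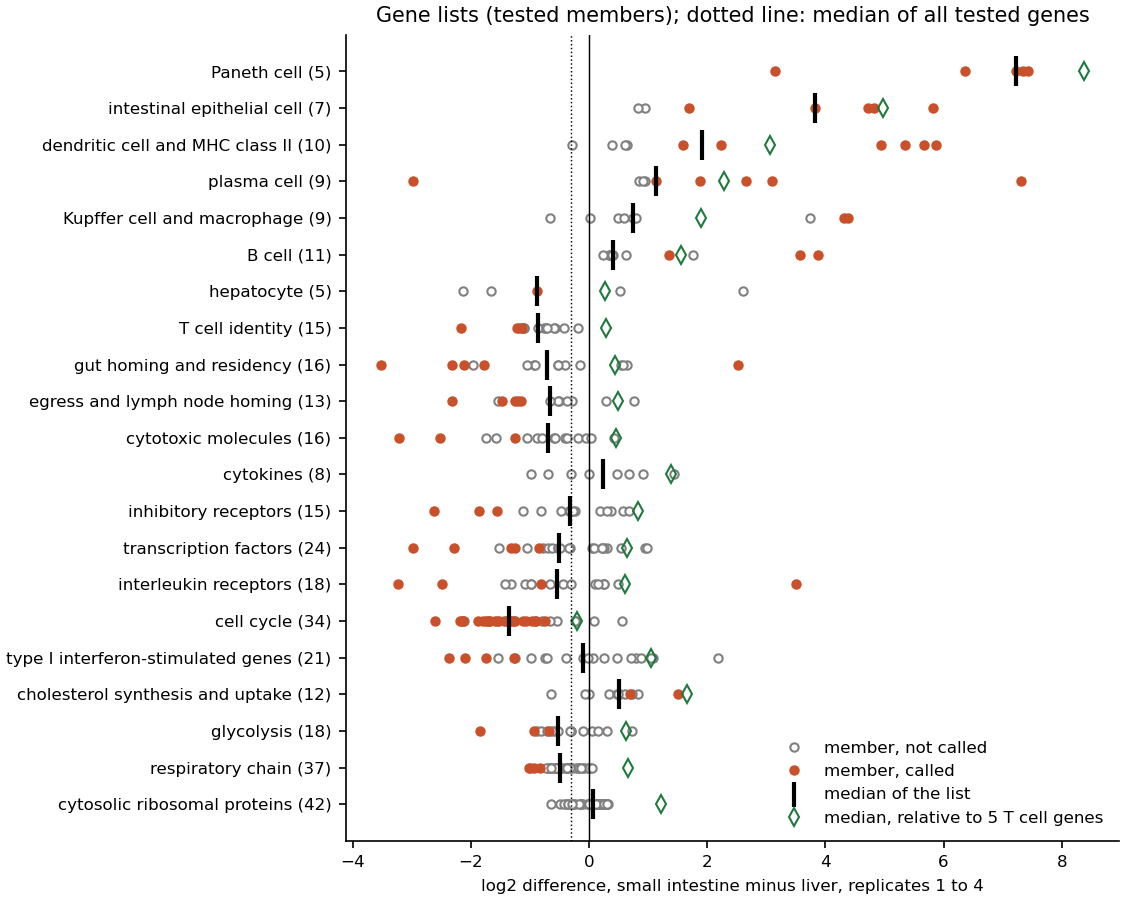
Tested members of 21 gene lists; the horizontal axis is the log2 difference, small intestine minus liver, over replicates 1 to 4, filled circles are called genes, vertical bars list medians, diamonds list medians relative to 5 T cell genes, and the dotted line the median of all tested genes (-0.31). Paneth, epithelial and MHC class II genes lie to the right and cell cycle genes to the left. The diamonds lie to the right of the bars by the same shift in every list, which that scaling fixes in advance.

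Other groups moved little or with few members. Of 12 tested genes of cholesterol synthesis and uptake, 2 were called higher, Msmo1 at 1.51 (adjusted p = 0.00096) and Fdps at 0.69 (adjusted p = 0.0418), both enzymes of the pathway. They were 16.7% of the tested members, against 3.12% of all tested genes. The call of Fdps was lost without any 1 of 7 of the 8 libraries, and Msmo1 remained called whichever was left out. Msmo1 stood at 2.61, 2.91, 3.66 and 2.91 in intestine 1 to 4, against 1.31, 1.41, 1.82 and 1.51 in liver 1 to 4, without overlap. Hspa5, the chaperone of the endoplasmic reticulum, was higher at 0.76 (adjusted p = 0.0171). It was the 1 called of 16 tested genes of the unfolded protein response (6.25%, against 3.12% of all tested genes). Among 17 amino acid synthesis and ATF4 target genes, the stress-induced Chac1 and Nupr1 were higher, at 2.67 (adjusted p = 0.00565) and 2.60 (adjusted p = 0.0281), and the serine synthesis genes Phgdh, Psat1 and Psph lower, at -0.96, -1.11 and -0.99. The call of Phgdh was lost without any 1 of 5 of the 8 libraries, and those of Psat1 and Psph without any 1 of 6. Relative to T cell genes Phgdh, Psat1 and Psph were above 0, and the other probe of Psat1 differed by 0.77. Chac1 passed the filter on signal through intestine alone, so it had to differ and its call is a description. The higher genes were 11.8% of the tested list, against 3.12% of all tested genes, and the lower genes 17.6%, against 16.1%. Of 21 interferon-stimulated genes, 4 were lower, the RNA sensor Ddx58 at -2.38 (adjusted p = 0.00941), Trim30a at -1.74 (adjusted p = 0.00804), Xaf1 at least 2.17-fold lower (adjusted p = 0.0131) and Irf9, named after its values were seen, at -1.27. Of 15 interferon gamma-induced genes, the guanylate-binding protein Gbp6 was higher at 2.65 (adjusted p = 0.0387), and Nlrc5, which drives MHC class I genes, was lower at -1.82 (adjusted p = 0.00572), with the immunoproteasome subunits Psmb8 and Psmb9 at -0.85 and -0.89. The lower genes were 19% of the interferon-stimulated list and 20% of the interferon gamma-induced list, against 16.1% of all tested genes.

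Energy metabolism genes were called lower about as often as all tested genes (16.1%) or less, at 16.7% in glycolysis, 16.7% in fatty acid oxidation and 8.11% in the respiratory chain, and none was called higher. They were 3 of 18 in glycolysis (the glucose transporter Slc2a3 at -1.84, Pfkp at -0.93 and Pgam1 at -0.68), 3 of 18 in fatty acid oxidation (Acsl5 at -1.12, Cpt1a at -1.05 and Hadhb at -0.86) and 3 of 37 in the respiratory chain (Ndufs1 at -1.01, Ndufa4 at -0.93 and Cyc1 at -0.82). Of these 9 genes, Slc2a3 was the 1 still below 0 relative to T cell genes, at -0.69 (adjusted p = 0.125). The deubiquitinase Cyld differed by -1.88 (adjusted p = 0.0023) and the initiator caspase Casp9 was at least 1.76-fold lower (adjusted p = 0.00366). Among 31 proteasome subunits, Psmd6, Psmd8, Psmd13 and Psmd7, the last named after its values were seen, were lower, at -1.01, -1.08, -0.71 and -0.53, but all 4 were above 0 relative to T cell genes. The 4 were 12.9% of the tested subunits, against 16.1% of all tested genes. Ankrd37 and Ddit4, of 10 hypoxia genes, differed by -1.59 and -1.10, the chaperone Dnajb1, of 15 heat-shock genes, by -0.77, and the ectoenzyme Cd38, of 18 genes of costimulation and activation, by 0.96. The lower genes were 20% of the hypoxia list and 6.67% of the heat-shock list, against 16.1% of all tested genes. The call of Cd38 was lost without any 1 of 7 of the 8 libraries, and those of Ankrd37 and Dnajb1 without any 1 of 6. No gene was called among 42 cytosolic ribosomal proteins, 22 ribosome biogenesis genes and 17 immediate-early genes, whose medians were 0.071, -0.34 and 0.17. Relative to T cell genes, 40 of the 42 ribosomal protein genes were called higher, as were 41.4% of all tested genes. Under that scaling, which moved all genes by the same amount, their median was 1.22, against 0.84 for all tested genes.

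Several of the genes called lower in intestine lay outside the lists. Nr3c1, the glucocorticoid receptor, stood at 0.83, -1.50, -1.27 and -1.11 in intestine 1 to 4 and 2.01 in the library labelled intestine 5, against 1.93, 2.47, 2.06 and 2.66 in liver 1 to 4 and 0.90 in the library labelled liver 5. All intestine libraries of 1 to 4 lay below all liver libraries of 1 to 4, and the difference was -3.04 ± 0.44 (SE, adjusted p = 0.000202). The splicing factor kinase Srpk2 differed by -3.71 (adjusted p = 0.00311), Tti1 by -3.42 (adjusted p = 0.00133), Fam78a by -3.22 (adjusted p = 8.1e-05) and the telomere-binding protein Terf2 by -3.18 (adjusted p = 0.00366). Dusp7, a phosphatase of MAP kinases, and the adaptor Sh2d3c were not well above background on any of intestine 1 to 4 and were at least 3.32-fold and 6.34-fold lower, and the interferon-inducible Ifi208 was at least 2.44-fold lower (adjusted p = 3.01e-05). Relative to T cell genes, Fam78a was -2.07 (adjusted p = 0.000305), Nr3c1 -1.89 (adjusted p = 0.0171), Srpk2 -2.56 (adjusted p = 0.00844), Tti1 -2.27 (adjusted p = 0.00566) and Terf2 -2.03 (adjusted p = 0.0216). Nr3c1, Srpk2 and Terf2 were well above background in 1 of intestine 1 to 4, and Fam78a and Tti1 in 2.

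With all libraries as labelled, 9 of the 10 genes with the smallest p-values were lower in intestine, though none passed. Ptpn6, the phosphatase SHP-1, stood at 3.75, 3.22, 3.46 and 2.92 in intestine 1 to 4 and 4.58 in the library labelled intestine 5, against 5.35, 5.17, 5.04 and 5.26 in liver 1 to 4 and 4.07 in the library labelled liver 5. The difference of Ptpn6 as labelled was -1.40 (adjusted p = 0.0915). Kbtbd11 was -1.56 (adjusted p = 0.0915), Ttc7 -0.96 (adjusted p = 0.0915), Fam53b -2.59 (adjusted p = 0.0915), Sh2d3c -2.71 (adjusted p = 0.0915) and Gin1 -1.12 (adjusted p = 0.0915). Fam53b and Sh2d3c were well above background on 1 of the 5 intestine libraries. Kif23, Prkd2 and Dcp1b were also lower and the adhesion receptor Adgrg5 at least 1.68-fold higher, well above background on 3 of the 5 intestine and none of the 5 liver libraries, each with adjusted p = 0.109. Without replicate 5 of both, Ptpn6 differed by -1.87 (adjusted p = 2.17e-05) and Kbtbd11 by -2.12 (adjusted p = 9.24e-06). Leaving out the library labelled intestine 5 alone gave 1352 calls, and leaving out the library labelled liver 5 alone gave 468.

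**Figure D5:**
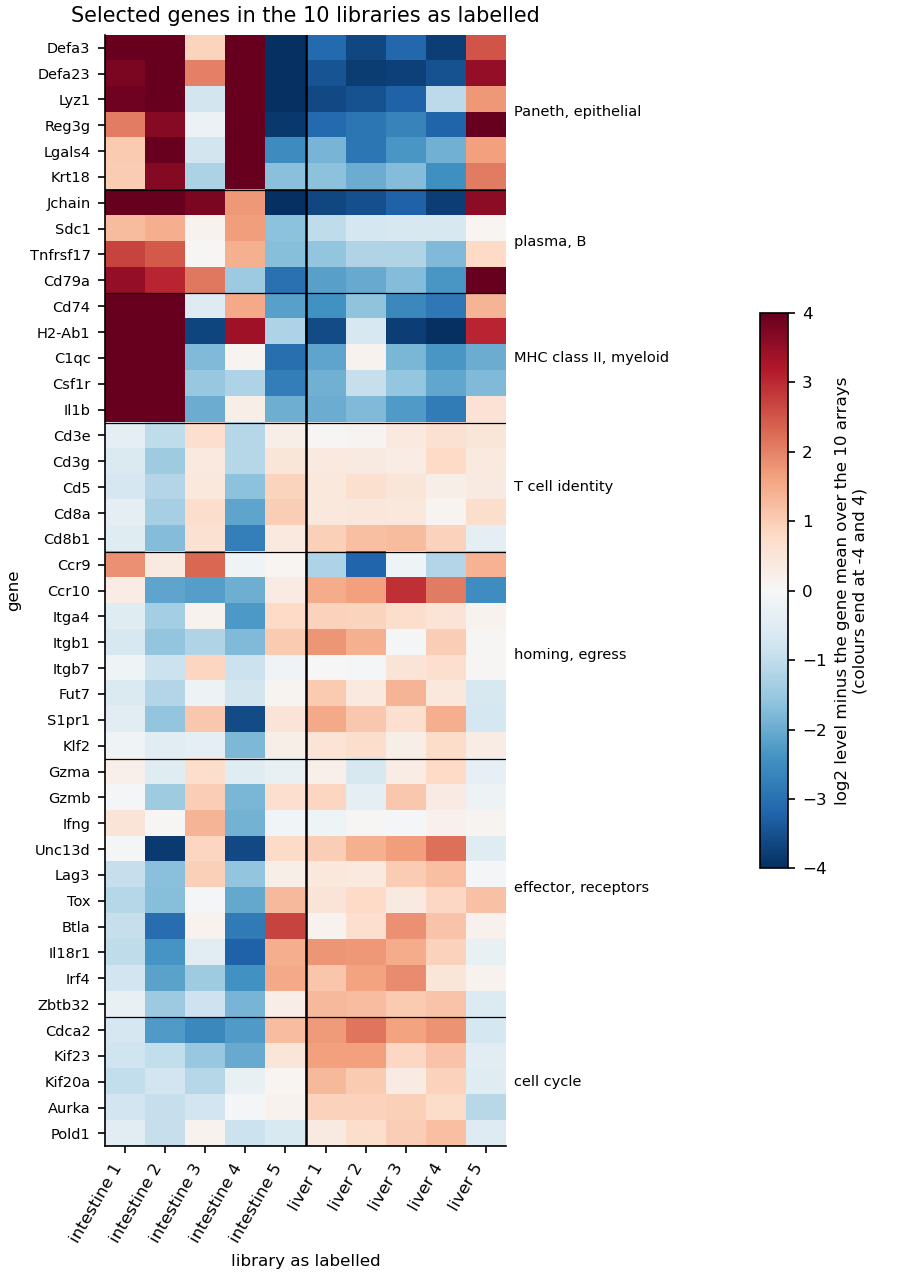
Selected genes (rows) in the 10 libraries as labelled (columns, small intestine left of liver); colour is the log2 level minus the gene's mean over the 10 arrays, with colours ending at -4 and 4. In the defensin, Lgals4 and Jchain rows the columns of intestine 5 and liver 5 look like those of the other site, but not in every row. In C1qc and Tox, liver 5 lies outside the range of intestine 1 to 4. The defensin rows are high in intestine 1, 2 and 4 and less so in 3, and the cell cycle rows are low in intestine 1 to 4.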

How the data were processed

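Total RNA of CD45.1-selected cells was hybridised in 1 colour (Cy3) to Agilent mouse arrays with 60-base probes; scanner files were used, with build mm9 and Feature Extraction 9.5.1.1 per the file headers, while the submitters' processing notes name version 10.7. The main values were the deposited processed signal, an intensity that is already background-subtracted per the file headers. Here log2 of it minus each array's 75th percentile over 39429 gene probes was taken. The deposited log2 table, which tracked quantile-normalized values after centring, served as an alternative. Genes with a symbol were tested when well above background on all or all but 1 array of a group, with 1 probe per gene (the highest mean). The authors' sample labels gave the groups. All 24 arrays entered limma 3.58.1 (R 4.3.3), and calls rest on an adjusted p (Benjamini-Hochberg) under 0.05. The fit was tested on simulated data. The alternatives were other scalings, normexp with an offset of 50, filters, probes, fitted arrays, array weights, slide, replicate block and omissions of 1 library; the T cell scaling was added after the data were seen.

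Each day 4 slide holds 1 library of each site under 1 number. Deviations of same-numbered intestine and liver libraries correlated at 0.0972, 0.275, 0.116 and 0.131 for numbers 1 to 4, and at -0.359 for number 5, against -0.325 to 0.342 for other pairs of 1 to 4, so the numbers were not taken to pair the samples, and values with slide as a block are given because a slide is a shared batch. The graft arrays share a slide and a scan of their own. Named genes were the largest called differences, the most certain bounds, up to 3 called members a direction for each list, and a fixed set of T cell genes; exceptions are marked. Some genes of the lists are not reported here. The libraries compared and the lists were chosen with earlier results of these data known. RefSeq sequence tables were not used, and probe sequences come from the array files.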

Additional observations from a re-analysis of the deposited data

Results flagged for a closer look

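Each named gene was examined for 1 library far from the other 4 of its site, by the gap between the farthest library and the nearest of the others as a share of the range over the 5 libraries, with a limit of 0.71. Of 278 groups tested (139 genes in 2 sites), 46 passed the limit; chance gives about 1 in 20. The library labelled intestine 5 was the lowest intestine library for Igh-VJ558 (0.882), Chac1 (0.897) and Derl3 (0.724), and the highest for Camp (0.785), S100a8 (0.796), Il27ra (0.713), Dusp7 (0.884) and Cyc1 (0.776), each with its share of the range. The library labelled liver 5 was the highest liver library for Defa3 (0.894), Defa23 (0.953), Defa24 (0.925), Defa27 (0.889), Defa28 (0.923), Defa29 (0.939), Defa42 (0.94), Krt18 (0.825), Lgals4 (0.772), Reg3g (0.927), Gjb2 (0.915), Jchain (0.929), Tnfrsf17 (0.781), Iglv1 (0.772), Cd79a (0.909), Ly86 (0.832), Hspa5 (0.773), Krt19 (0.765), Mzb1 (0.748) and Derl3 (0.815). It was the lowest for Cd8b1 (0.788), Ccr10 (0.731), Zbtb32 (0.86), Aurka (0.906), Cdca2 (0.816), Fam78a (0.819), Terf2 (0.781), Ptpn6 (0.759), Ttc7 (0.844), Fam53b (0.743), Cyc1 (0.716), Prkd2 (0.714) and Psmd7 (0.755). Other libraries were liver 1, lowest for Cr2 (0.853), liver 2, highest for C1qc (0.789), liver 3, highest for Tnf (0.713) and Gbp6 (0.823), and liver 4, highest for Cd3g (0.761). The libraries labelled replicate 5 thus accounted for 8 and 33 of the 46 groups, intestine and liver in that order, among genes chosen in the comparison that leaves them out.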

How the results depend on the processing

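As labelled, 0 genes were called with 12 other settings of scaling, background, filter, probes, fitted arrays or block, against 3231 with array weights and 1 relative to the 5 T cell genes. Leaving out 1 library gave 0 to 1352 calls as labelled: 661 without intestine 3, 1 (Adgrg5) without intestine 4, 1352 without intestine 5, 468 without liver 5 and 0 otherwise. Without replicate 5 of both, the 1820 calls became 1088 with the 75th percentile taken over the probes that every array detected, 1125 with quantile normalization, 1129 with the deposited log2 values, 910 of 4734 with probes well above background on every array, 3138 with array weights and 4047 relative to T cell genes, and leaving out 1 library gave 779 to 3584. The replicate block on the 8 arrays gave 176 calls, against 414 for those arrays without it. The block removes degrees of freedom from a fit of 8 arrays, and the numbers were not shown to pair the samples. The share of calls that were higher in intestine ran from 5.05% (probes well above background on every array) and 9.18% (the intestine and liver arrays alone) to 50.7% (median of detected probes) and was 96.5% relative to T cell genes. Log2 differences of named genes that changed sign relative to T cell genes were Ass1 (0.268), Cd3e (0.397), Cd3g (0.023), Cd8a (0.013), Ptprc (0.446), Itgb7 (0.622), Cxcr6 (0.225), Gzma (0.972), Gzmb (0.104), Il27ra (0.342), Ttc7 (0.00193), Phgdh (0.192), Psmb9 (0.265), Acsl5 (0.0302), Cpt1a (0.0987), Itgb2 (0.00655), Bcl11b (0.309), Psmb8 (0.308), Pfkp (0.219), Pgam1 (0.472), Ndufa4 (0.222), Ndufs1 (0.145), Cyc1 (0.329), Hadhb (0.296), Psat1 (0.0401), Psph (0.159), Ddit4 (0.0535), Dnajb1 (0.387), Psmd13 (0.44), Psmd6 (0.147), Psmd8 (0.0772) and Psmd7 (0.62). Gzma also changed sign with the median of detected probes (0.21), and ran from -0.448 to 0.0258 over the 8 omissions. Ifng, whose main difference was near 0, was -0.0431 as labelled and -0.12 with normexp, and ran from -0.443 to 0.639 over the omissions. No other named gene of 139 changed sign in any setting run. The T cell scaling and the median of detected probes each subtract 1 number per array, and so move every gene's difference by the same amount. The sign changes under them follow from that shift. The cause of the other sign changes was not tested. Signal over background limits the genes given as bounds, and 10 arrays limit the precision.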
